A study of Homo sapiens with 9 samples.

Results

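A set of 34 named human protein-coding genes outside the histone clusters, each made from a single exon, was followed in 9 libraries of polyadenylated RNA from MDA-MB-231. MDA-MB-231 is a mesenchymal-like cell line from a triple-negative breast cancer, and it was the only line in the series. Per the labels, 3 libraries were made from cells that had pladienolide B (10 nM) for 6 h, 3 from cells that had indisulam (3.3 µM) for 12 h, and 3 from DMSO controls labelled 12 h. No DMSO library at 6 h was analysed here, so drug and time cannot be told apart for pladienolide B, and the drugs differed in dose and time as well as in kind. The genes are listed by symbol, and the list was drawn up with earlier results of these data known. A row of their own was found for 32 of the 34 genes, and PURB was taken from a row that it shares with a microRNA. KTI12, a regulator of the Elongator complex, shares its row with the spliced gene TXNDC12, so its reads could not be separated and it was not counted. FOXD1, a forkhead transcription factor, was at or near the limit that a count of 0 allows, with 0, 0 and 0 with pladienolide B, 3.66, 0 and 2.09 with indisulam and 0, 0 and 4.08 with DMSO, and it was not tested. The remaining 32 genes passed the minimum mean value of 10 and were tested among 16846 features of 46846 in the table.

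Most human genes are interrupted by introns, which the spliceosome removes before the mRNA leaves the nucleus. A smaller class is intronless: its transcripts are capped, cleaved and polyadenylated but need no splicing, and many of these genes are short, respond quickly to signals or arose by retrotransposition of a spliced copy. Pladienolide B inhibits SF3b, the part of the U2 snRNP that recognises the branch point of an intron. Indisulam joins the splicing factor RBM39 to the ubiquitin ligase receptor DCAF15, which leads to the loss of RBM39. In the GENCODE release 29 annotation the principal coding transcript had 1 exon in all 34 genes, and 33 of them had only single-exon coding transcripts. The exception was IER2, for which a transcript with 2 exons is also annotated.

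The libraries held 59312100 to 83910831 reads, and 3 reads, the upper limit that a count of 0 allows, corresponded to 2.48 to 3.87 on the deposited scale, which covers counting error only. Values are DESeq2-normalised read counts as deposited, and fold changes are on the scale of log2(value + 1). Replicate libraries are not stated to be separate cultures, and their p-values thus reflect library-to-library spread, which may be technical. On the deposited scale the pladienolide B libraries summed to 1.39 times the DMSO libraries and the indisulam libraries to 1.04 times, and the share on the mitochondrial chromosome was 13.8 ± 0.15%, 9.93 ± 0.189% and 8.72 ± 0.437% with pladienolide B, indisulam and DMSO (SD, n = 3 each). Every result below was therefore also computed with the same total in each library, which moved the median change of all features by -0.47 for pladienolide B and by -0.05 for indisulam (log2). The part of these shifts in any result was not tested. In bulk RNA, fewer cells and less RNA per cell cannot be told apart. Of the mesenchymal markers, VIM, CD44, CAV1, AXL and MSN were all high in every group, ESR1, PGR and CD3E were at or near 0, and PTPRC averaged 9.76 to 12.1. ERBB2 was not absent, with group means of 5288 to 5792, and of the luminal markers KRT8 and KRT18 were high. GATA3, also luminal, averaged 1529 ± 108 with pladienolide B, 510.2 ± 27.4 with indisulam and 392 ± 11.2 with DMSO, and its part in the results was not tested.

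With pladienolide B, 25 of the 32 tested intronless genes rose and 3 fell against DMSO (limma, Benjamini-Hochberg adjusted p under 0.05), while over all tested features 34.3% rose and 35.5% fell. Of the 25, 16 rose at least 2-fold, and 9.62% of all features did. The median change of the 32 genes was 1.01 (log2), against -0.01 over all features tested. The largest rises were those of MOCS3, DNAJC30, FJX1, RRS1, CHMP1B and PURB, and the genes that fell were IER5L, FAM43A and INAFM1. With indisulam the changes were smaller: 11 of the 32 genes rose and 0 fell in limma, where 14.5% of all features rose and 12.4% fell. At an unadjusted p under 0.05 the count of falls was also 0, and edgeR and DESeq2 on the recovered reads each called 0. Their median was 0.17 (log2), against 0.05 over all features. The largest rise with indisulam was that of CHMP1B, 0.61 (log2), short of 2-fold, a size that 2.17% of all features reached. Without DMSO replicate 3 the count of rises with indisulam was 6, and leaving out single libraries ended the indisulam calls of DNAJC30, KBTBD7, TMEM203, CCDC85B and FAM43A and the pladienolide B calls of FOXC1 and PURA. The values of all 3 pladienolide B libraries lay above all 3 DMSO libraries for 23 genes (35.5% of all features) and below for 3 (36.3%), and with indisulam for 16 above (27.4%) and 2 below (21%). With both drugs 10 genes were called higher, another 15 were called higher with pladienolide B and not called with indisulam, and RHOB, SOX4, SOX12 and FOXQ1 were called with neither. The share of all features in each of these combinations was not computed, so these counts have no background beside them.

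**Figure D1:**
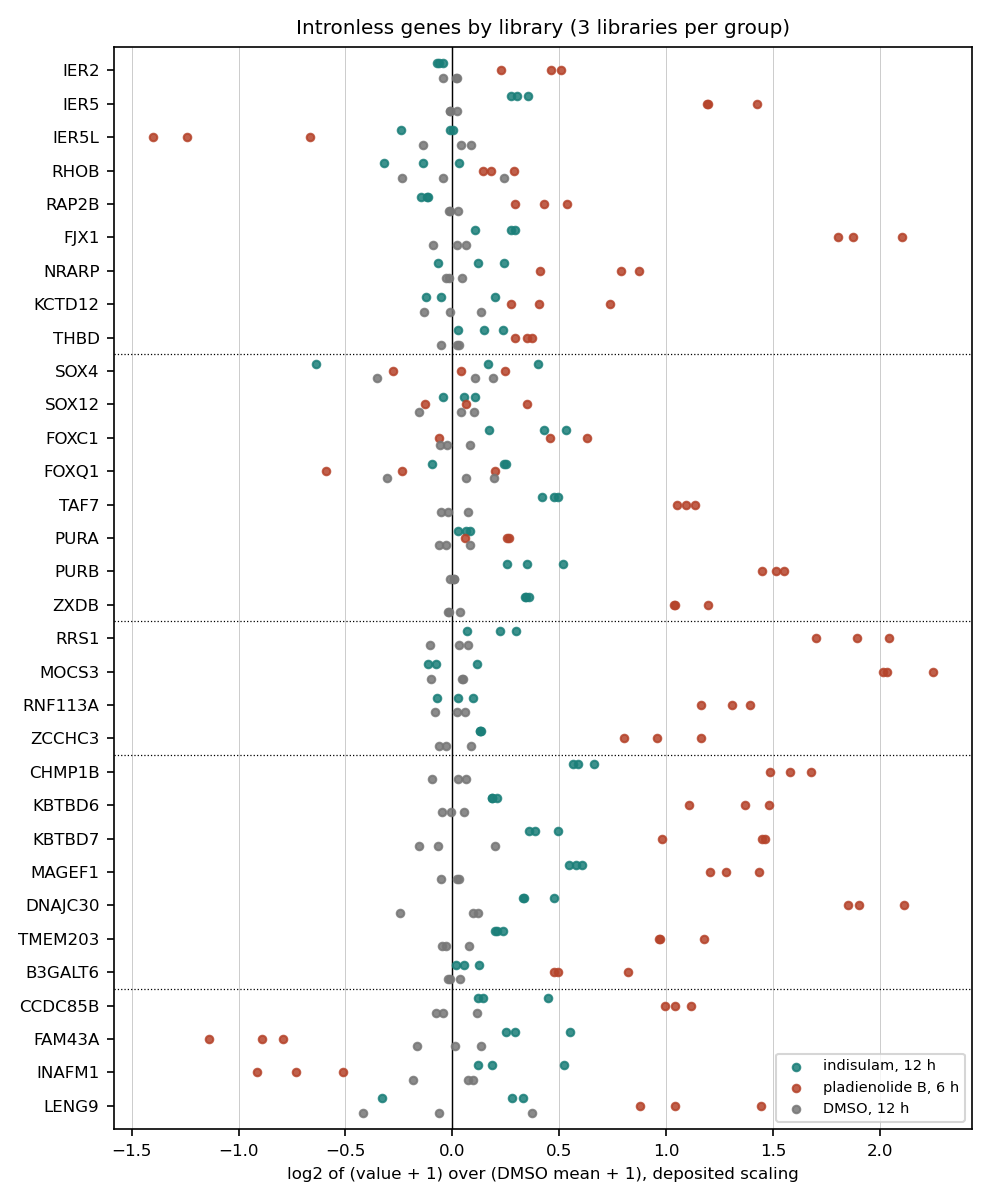
Each point is a library, placed by the log2 of its value plus 1 over the DMSO mean plus 1 (x axis, deposited scaling) for the 32 tested genes (y axis, grouped by role, dotted lines between roles). Indisulam and pladienolide B points are drawn above the DMSO points of the same gene. Most pladienolide B points lie right of 0, with MOCS3 near 2.10, and those of IER5L, FAM43A and INAFM1 lie left of it.

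The sequences before the starts of 5 of these genes are shown because they bracket the range of responses: MOCS3 and DNAJC30 rose most with pladienolide B, CHMP1B rose most with indisulam, and IER5L and FAM43A fell most with pladienolide B. Each is the 250 bases before the RefSeq start (build GRCh38.p14), read on the gene's strand, and the capitals mark any match to the motifs searched. The windows are chr20:50958568-50958817 (plus strand), chr7:73683454-73683703 (minus strand), chr18:11851163-11851412 (plus strand), chr9:129178262-129178511 (minus strand) and chr3:194685633-194685882 (plus strand).
MOCS3: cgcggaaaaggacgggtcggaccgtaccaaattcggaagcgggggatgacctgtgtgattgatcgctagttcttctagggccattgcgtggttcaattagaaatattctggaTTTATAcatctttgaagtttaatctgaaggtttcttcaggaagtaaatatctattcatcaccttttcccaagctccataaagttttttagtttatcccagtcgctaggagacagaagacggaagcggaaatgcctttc
DNAJC30: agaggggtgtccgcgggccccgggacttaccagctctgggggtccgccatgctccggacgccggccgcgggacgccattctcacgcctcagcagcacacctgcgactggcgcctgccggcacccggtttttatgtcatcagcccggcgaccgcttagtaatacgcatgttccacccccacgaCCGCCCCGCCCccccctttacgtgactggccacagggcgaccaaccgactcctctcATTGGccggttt
CHMP1B: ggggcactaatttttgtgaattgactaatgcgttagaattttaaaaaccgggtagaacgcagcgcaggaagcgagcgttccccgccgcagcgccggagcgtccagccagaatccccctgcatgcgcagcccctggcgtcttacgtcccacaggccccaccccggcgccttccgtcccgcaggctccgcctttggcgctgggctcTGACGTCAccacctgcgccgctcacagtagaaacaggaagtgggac
IER5L: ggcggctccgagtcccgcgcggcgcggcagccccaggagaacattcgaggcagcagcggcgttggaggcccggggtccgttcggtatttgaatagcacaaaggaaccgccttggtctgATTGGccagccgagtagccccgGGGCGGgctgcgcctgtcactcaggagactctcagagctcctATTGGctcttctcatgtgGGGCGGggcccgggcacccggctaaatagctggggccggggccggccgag
FAM43A: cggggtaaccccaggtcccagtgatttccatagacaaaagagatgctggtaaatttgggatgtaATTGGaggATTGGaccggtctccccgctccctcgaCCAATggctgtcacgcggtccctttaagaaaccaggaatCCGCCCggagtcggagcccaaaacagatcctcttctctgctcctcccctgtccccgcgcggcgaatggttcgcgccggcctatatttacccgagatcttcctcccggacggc
The windows differed in composition, with a GC content of 43.2% for MOCS3, 67.6% for DNAJC30, 62.4% for CHMP1B, 68.4% for IER5L and 58% for FAM43A. MOCS3 had no GC box or CCAAT box in this window. Its only match was to the TATA box letters on the opposite strand, 138 to 133 bases before the start. CHMP1B had a complete CRE, 46 to 39 bases before the start. DNAJC30, IER5L and FAM43A each held both GC boxes and CCAAT boxes, so these motifs stood before a gene that rose and before genes that fell.

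Motifs were searched on both strands of the same 250 bases in the 27 tested genes of the set that have a RefSeq promoter (29 of the 34 named genes matched) and in all 15843 protein-coding promoters on the main chromosomes. A GC box (GGGCGG) was found in 21 of the 27, against 56.0% of all promoters. The CCAAT box (CCAAT) was found in 13, against 34.5%. The core of the cAMP response element (TGACG) was in 14, against 25.6%. The complete element (TGACGTCA), which contains that core, was in PURB and CHMP1B, against 2.32% of all promoters. The TATA box (TATAAA) was in 2 against 9.23%, the E-box (CACGTG) in 2 against 7.84%, the ETS site (CCGGAAG) in 4 against 11.8%, the AP-1 site (TGANTCA) in 1 against 5.04%, and the CArG box in 0 against 1.14%. Median GC content was 68.4% over the 29 matched promoters and 62.4% over all. A match is a description of letters in this window and not a bound site.

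Among the immediate early and signalling genes, 7 of 9 rose with pladienolide B and 1 fell, where 34.3% of all features rose and 35.5% fell, and 1 of 9 rose with indisulam, or 11.1%, where 14.5% of all features did. Set to the same total, 2 of the 9 rose with pladienolide B, or 22.2%, where 16.2% of all features did. FJX1 (chr11:35618419-35620871), the human relative of the Drosophila Golgi kinase four-jointed, had 23091, 28442 and 24237 with pladienolide B, 7113, 8016 and 8104 with indisulam and 6221, 6712 and 6929.8 with DMSO. All pladienolide B libraries were more than 3 times any DMSO library in level, while the indisulam libraries overlapped none of the DMSO values but lay close above them. Coordinates here and below are those of the deposited rows in hg38. The change of FJX1 was 1.93 ± 0.08 with pladienolide B (limma, adjusted p = 1.91e-10) and 0.23 ± 0.08 with indisulam (limma, adjusted p = 0.052). IER5 (chr1:181088700-181092900), an immediate early gene whose product regulates the heat shock factor HSF1, had 34951, 40974 and 34747 with pladienolide B, 18769, 18432 and 19450.4 with indisulam and 15143, 15108 and 15467 with DMSO. Both drug groups lay wholly above DMSO for IER5, with changes of 1.27 ± 0.06 with pladienolide B (limma, adjusted p = 9.32e-10) and 0.31 ± 0.06 with indisulam (limma, adjusted p = 0.00283). Its relative IER5L (chr9:129175552-129178261) went the other way with pladienolide B, at 632, 1052 and 705, against 1673, 1659 and 1413 with indisulam and 1714, 1776 and 1518 with DMSO. The pladienolide B values of IER5L lay below all others and were the most spread of the 3 groups. The change was -1.10 ± 0.15 with pladienolide B (limma, adjusted p = 1.81e-05) and -0.08 ± 0.15 with indisulam (limma, adjusted p = 0.743).

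The other members of this group moved by less than 2-fold. IER2, an immediate early nuclear protein, averaged 9750.3 ± 998 with pladienolide B, 7065 ± 72.3 with indisulam and 7363 ± 184 with DMSO (SD, n = 3 each, as for all means that follow). RAP2B, a small GTPase of the Ras family, averaged 11058 ± 927 with pladienolide B, 7558 ± 97.7 with indisulam and 8254 ± 143 with DMSO, so the indisulam mean lay below DMSO and the pladienolide B mean above. NRARP, a feedback inhibitor of Notch signalling, averaged 282 ± 46.2 with pladienolide B, 186 ± 20 with indisulam and 173 ± 4.74 with DMSO. These 3 genes rose with pladienolide B by 0.40 ± 0.07, 0.42 ± 0.06 and 0.69 ± 0.16 on the deposited scale. KCTD12, an auxiliary subunit of the GABA-B receptor, averaged 5052 ± 859.5 with pladienolide B, 3648 ± 439 with indisulam and 3612 ± 335 with DMSO. THBD, the thrombin receptor thrombomodulin, averaged 4028 ± 114 with pladienolide B, 3507 ± 252 with indisulam and 3184 ± 102 with DMSO. Both were called higher with pladienolide B, by 0.47 ± 0.11 (limma, adjusted p = 0.00215) and 0.34 ± 0.07 (limma, adjusted p = 0.000414). RHOB, an endosomal small GTPase, averaged 1636 ± 84.7 with pladienolide B, 1293 ± 157 with indisulam and 1419 ± 238 with DMSO, and passed the test in neither comparison with DMSO. With the same total in each library, none of IER2, RAP2B, NRARP, KCTD12 and THBD was called higher with pladienolide B, and the changes of IER2, RAP2B and THBD turned negative, at -0.07, -0.05 and -0.13. RAP2B was then called lower with indisulam, by -0.18 (limma, adjusted p = 0.0222).

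Of the 8 tested genes that act in transcription, 5 rose with pladienolide B, where 34.3% of all features rose, and 3 rose with indisulam, where 14.5% did. With pladienolide B 3 rose at least 2-fold, where 9.62% of all features did. Set to the same total, 3 rose and 3 fell with pladienolide B, where 16.2% of all features rose and 53.9% fell. The median of the 8 genes changed sign, at -0.20 against 0.27 on the deposited scale (log2). With the same total the median over all features was -0.48. TAF7 (chr5:141318490-141320784), a subunit of the general transcription factor TFIID, had 23524, 22883 and 22242 with pladienolide B, 15087, 14326 and 14927 with indisulam and 11273, 10338 and 10570.4 with DMSO. The 3 groups did not overlap, and the spread within each was small. TAF7 rose by 1.09 ± 0.05 with pladienolide B (limma, adjusted p = 7.35e-10) and by 0.46 ± 0.05 with indisulam (limma, adjusted p = 4.52e-05). PURB (chr7:44876295-44885530), a binder of purine-rich single-stranded DNA and RNA, had 23035, 23659.7 and 22027 with pladienolide B, 11541, 9639 and 10263 with indisulam and 7993, 8104 and 8107 with DMSO. It rose by 1.50 ± 0.06 with pladienolide B (limma, adjusted p = 2.47e-10) and by 0.37 ± 0.06 with indisulam (limma, adjusted p = 0.000912), again with no overlap between groups. Its relative PURA, which is also intronless, averaged 5001 ± 393 with pladienolide B, 4539.8 ± 91.8 with indisulam and 4365 ± 233 with DMSO. PURA rose by 0.19 ± 0.07 with pladienolide B on the deposited scale (limma, adjusted p = 0.0215), and with the same total per library it fell, with -0.28 (limma, adjusted p = 0.00282).

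ZXDB (chrX:57592011-57597477), a zinc finger gene on the X chromosome, had 3949, 4409.5 and 3960.00 with pladienolide B, 2463, 2432 and 2442 with indisulam and 1900.1, 1892 and 1973 with DMSO. All values of both drug groups lay above DMSO, by 1.09 ± 0.06 with pladienolide B (limma, adjusted p = 4.84e-09) and 0.35 ± 0.06 with indisulam (limma, adjusted p = 0.00153). Its near-identical copy ZXDA averaged 501.2 ± 41.7 with pladienolide B, 392 ± 50.8 with indisulam and 361 ± 29.2 with DMSO, and how reads common to both copies were counted is not stated. The set also holds developmental transcription factors of the SOX and forkhead families. FOXC1 averaged 1954 ± 459 with pladienolide B, 1976 ± 247 with indisulam and 1513 ± 77.9 with DMSO, and it passed the threshold narrowly with pladienolide B, at 0.34 ± 0.14 (limma, adjusted p = 0.049). FOXQ1 averaged 1798 ± 497 with pladienolide B, 2235 ± 292 with indisulam and 2027 ± 349 with DMSO. SOX12 averaged 2232 ± 375 with pladienolide B, 2130.4 ± 112 with indisulam and 2072 ± 188 with DMSO. SOX4 had wide spreads in all groups, averaging 470.1 ± 84 with pladienolide B, 478 ± 162 with indisulam and 464 ± 88.3 with DMSO. FOXQ1, SOX12 and SOX4 passed the test with neither drug on the deposited scale, where their pladienolide B changes were -0.19 ± 0.17, 0.10 ± 0.11 and 0.02 ± 0.23. With the same total per library FOXQ1 and SOX12 were called lower with pladienolide B, at -0.67 (limma, adjusted p = 0.00298) and -0.37 (limma, adjusted p = 0.00528).

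All 4 tested genes of RNA and translation rose with pladienolide B, where 34.3% of all features did. Of these, 3 rose at least 2-fold, where 9.62% of all features did. With the same total all 4 were called higher, where 16.2% of all features were. With indisulam their changes, between -0.02 and 0.20, did not pass the test. MOCS3 (chr20:50958818-50963929), which activates sulfur carrier proteins for molybdenum cofactor synthesis and for thiolation of tRNA, had 4300.4, 5050.5 and 4348 with pladienolide B, 1008, 981 and 1149 with indisulam and 1101, 990.3 and 1096 with DMSO. The pladienolide B values stood far above the rest, and the indisulam and DMSO values overlapped. MOCS3 rose by 2.10 ± 0.09 with pladienolide B, the largest rise of the set (limma, adjusted p = 2.28e-10), and its change with indisulam was -0.02 ± 0.09 (limma, adjusted p = 0.872). RRS1, a factor of 60S ribosomal subunit assembly known from yeast, had 15924, 20197 and 18202 with pladienolide B, 5135, 5723 and 6019.9 with indisulam and 4550.03, 5001 and 5151 with DMSO. RRS1 rose by 1.88 ± 0.09 with pladienolide B (limma, adjusted p = 4.95e-10), while the indisulam values, of which the lowest lay within the DMSO range, gave 0.20 ± 0.09 (limma, adjusted p = 0.11). RNF113A (chrX:119870475-119871827), a ubiquitin ligase found in the spliceosome, had 3343, 3910.4 and 3695 with pladienolide B, 1419.7, 1518 and 1597 with indisulam and 1409, 1552 and 1512 with DMSO. Its indisulam and DMSO ranges overlapped, and it rose by 1.29 ± 0.08 with pladienolide B (limma, adjusted p = 6.59e-09). ZCCHC3, a nucleic acid binding zinc finger protein and co-sensor for cGAS, averaged 4838 ± 614 with pladienolide B, 2683 ± 2.88 with indisulam and 2449 ± 134 with DMSO. It rose by 0.98 ± 0.08 with pladienolide B (limma, adjusted p = 1.63e-07). The row that KTI12 shares with TXNDC12 averaged 13783 ± 804 with pladienolide B, 7307 ± 206 with indisulam and 6648 ± 297 with DMSO, and no value can be given to KTI12 from it.

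The 7 genes of protein turnover, membranes and organelles all rose with pladienolide B and 5 of them rose with indisulam, where 34.3% and 14.5% of all features rose. With pladienolide B 6 of them rose at least 2-fold, where 9.62% of all features did. Set to the same total, 6 rose with pladienolide B and 3 with indisulam, where 16.2% and 10.2% of all features rose. CHMP1B (chr18:11851395-11854444), a subunit of the membrane-cutting ESCRT-III complex, had 11073, 11865 and 10372 with pladienolide B, 5484, 5857 and 5558 with indisulam and 3773, 3874 and 3463 with DMSO. The 3 groups were fully separated, with indisulam between the others. CHMP1B rose by 1.58 ± 0.07 with pladienolide B (limma, adjusted p = 2.06e-10) and by 0.61 ± 0.07 with indisulam, the largest rise of the set with that drug (limma, adjusted p = 3.19e-05). MAGEF1 (chr3:184710364-184712064), a MAGE protein that acts with a ubiquitin ligase, had 6548, 7679 and 6903 with pladienolide B, 4154, 4324 and 4240.3 with indisulam and 2888, 2741 and 2903 with DMSO. It showed the same order of groups without overlap, and rose by 1.31 ± 0.07 with pladienolide B (limma, adjusted p = 1.17e-09) and by 0.58 ± 0.07 with indisulam (limma, adjusted p = 4.78e-05). DNAJC30 (chr7:73680918-73683453), a mitochondrial J-domain protein, had 3857, 4459 and 3719 with pladienolide B, 1433, 1297 and 1299.9 with indisulam and 1101, 1121 and 868 with DMSO. DMSO replicate 3 was lower than the other two, and both drug groups still lay above all 3. DNAJC30 rose by 1.97 ± 0.10 with pladienolide B (limma, adjusted p = 1.65e-09) and by 0.39 ± 0.10 with indisulam (limma, adjusted p = 0.0135).

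KBTBD6 and KBTBD7 are related adaptors that together serve a CUL3 ubiquitin ligase. KBTBD6 (chr13:41127569-41132802) had 2567, 3321 and 3078 with pladienolide B, 1354, 1353 and 1376 with indisulam and 1186, 1235 and 1151 with DMSO. KBTBD7 (chr13:41189834-41194571), at lower values, had 792, 783 and 566 with pladienolide B, 403, 374 and 368 with indisulam and 329, 257 and 273 with DMSO. All drug values of both genes lay above DMSO, and pladienolide B replicate 3 of KBTBD7 was the lowest of its group. Their rises with pladienolide B were close, at 1.32 ± 0.09 (limma, adjusted p = 1.64e-08) and 1.31 ± 0.14 (limma, adjusted p = 2.03e-06). With indisulam KBTBD7 rose by 0.42 ± 0.14 (limma, adjusted p = 0.0451), a call that 8 of the alternatives lost, and KBTBD6 gave 0.19 ± 0.09 (limma, adjusted p = 0.128). TMEM203 (chr9:137204076-137205650), a membrane protein of the endoplasmic reticulum with a role in calcium storage, had 8058, 9276 and 8018 with pladienolide B, 4714, 4843 and 4739 with indisulam and 4017, 4332 and 3965 with DMSO. It rose by 1.04 ± 0.07 with pladienolide B (limma, adjusted p = 1.06e-08) and by 0.22 ± 0.07 with indisulam (limma, adjusted p = 0.0294). B3GALT6, a galactosyltransferase that builds the linker of glycosaminoglycan chains, averaged 3756 ± 529 with pladienolide B, 2581 ± 97.9 with indisulam and 2468 ± 52.7 with DMSO. It rose by 0.60 ± 0.09 with pladienolide B (limma, adjusted p = 2.79e-05) on the deposited scale, and with the same total per library the change was 0.12 (limma, adjusted p = 0.168).

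Among the 4 less described genes, 2 rose and 2 fell with pladienolide B, where 34.3% of all features rose and 35.5% fell. On the deposited scale 2 of the 4 rose with indisulam, where 14.5% of all features did, and 0 of the 4 with the same total, where 10.2% did. CCDC85B (chr11:65890639-65891635), a coiled-coil protein, had 19422, 20443 and 18809 with pladienolide B, 12873, 10433 and 10257 with indisulam and 10215, 9161 and 8947 with DMSO. Its first indisulam library was higher than the other two, and the lowest lay just above the highest DMSO library. CCDC85B rose by 1.05 ± 0.08 with pladienolide B (limma, adjusted p = 7.12e-08) and by 0.24 ± 0.08 with indisulam (limma, adjusted p = 0.0471). FAM43A averaged 337 ± 40.7 with pladienolide B, 832 ± 96.2 with indisulam and 644 ± 66.5 with DMSO (SD, n = 3 each). It fell with pladienolide B, at -0.93 ± 0.13 (limma, adjusted p = 1.37e-05), and rose with indisulam, at 0.37 ± 0.13 (limma, adjusted p = 0.043). The indisulam call of FAM43A was lost in 8 alternatives, among them the same total (limma, adjusted p = 0.0863). The direct difference between the drugs was -1.30 ± 0.13 (limma, adjusted p = 5.23e-07). INAFM1 averaged 308 ± 43.6 with pladienolide B, 614 ± 95.8 with indisulam and 503 ± 53 with DMSO, and fell with pladienolide B, at -0.71 ± 0.14 (limma, adjusted p = 0.000476). LENG9 (chr19:54461732-54463778) had 228, 338 and 255 with pladienolide B, 156, 150.04 and 98.2 with indisulam and 92.2, 160.1 and 118 with DMSO, a wide spread that left indisulam and DMSO overlapping. It rose by 1.16 ± 0.24 with pladienolide B (limma, adjusted p = 0.000621), but 285 bases of its row overlap the row of LENG8 on the opposite strand, whose mean value was 35.3 times that of LENG9. Since no source states whether strand was used in counting, reads of the pair may not be separated.

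The scaling decided part of the pladienolide B result. With the same total in each library, 17 of the 32 genes rose and 6 fell with pladienolide B, while 16.2% of all features rose and 53.9% fell, and the median was 0.54 (log2), against -0.48 over all features. All 17 had also been called higher on the deposited scale, and the 3 genes called lower there stayed lower. The largest rises were then 1.63 for MOCS3, 1.49 for DNAJC30, 1.45 for FJX1 and 1.41 for RRS1, and the falls were -1.57 for IER5L, -1.41 for FAM43A and -1.18 for INAFM1. IER2, RAP2B, NRARP, KCTD12, THBD, FOXC1 and B3GALT6 lost their calls, PURA changed from higher to lower, and SOX12 and FOXQ1 became lower. With indisulam 7 genes rose with the same total, IER5, TAF7, PURB, ZXDB, CHMP1B, MAGEF1 and DNAJC30, and RAP2B fell, where 10.2% of all features rose and 15.1% fell. KBTBD7, TMEM203, CCDC85B and FAM43A lost their indisulam calls.

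**Figure D2:**
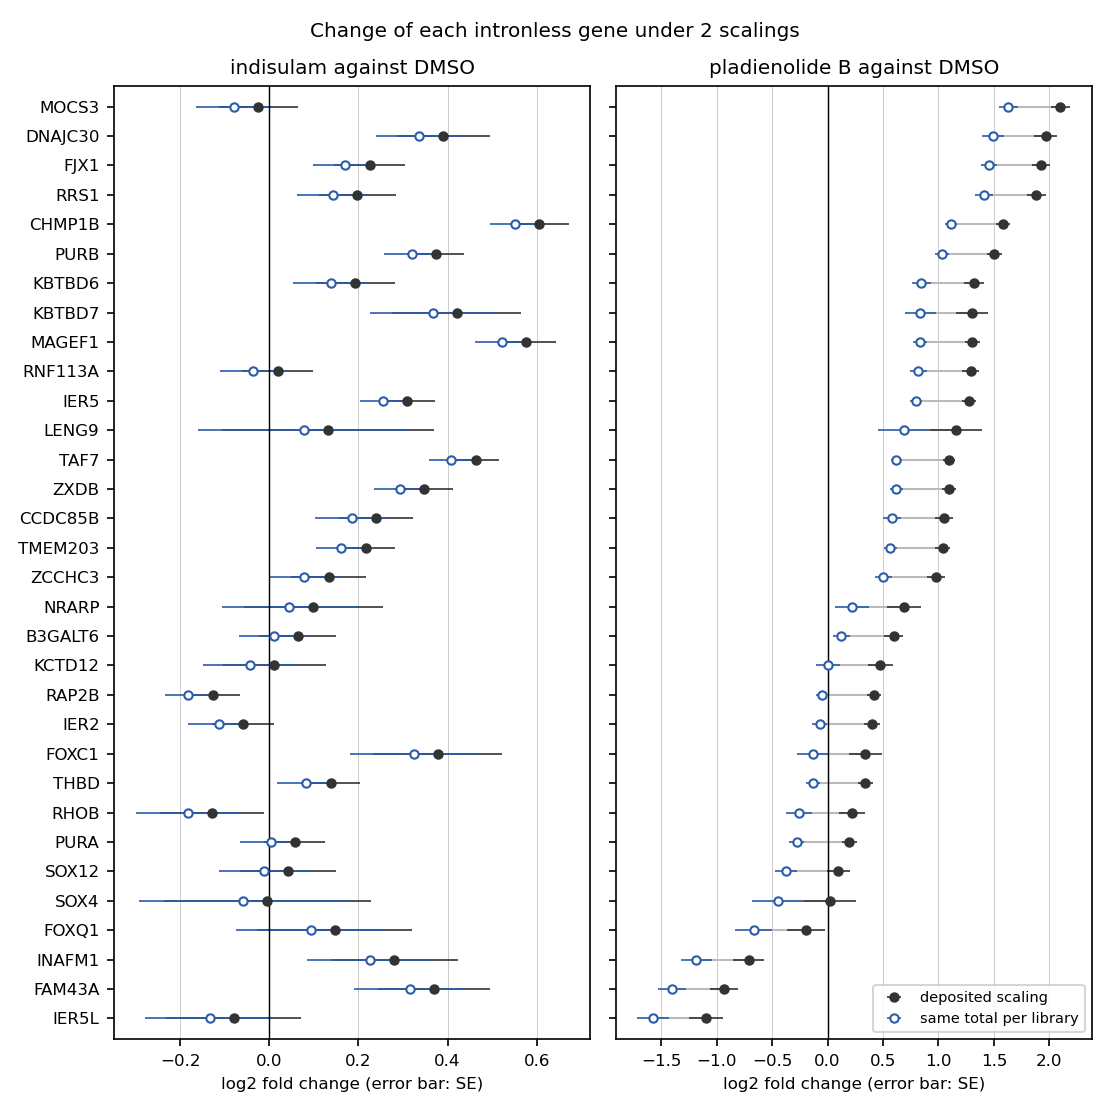
Log2 fold change of each gene against DMSO (x axis, bars are SE) with indisulam (left panel) and pladienolide B (right panel), on the deposited scaling (filled points) and with the same total per library (open points), genes ordered by the pladienolide B change. With the same total the pladienolide B points move left by about 0.47, and 17 genes stay called higher.

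A change in how the libraries are scaled moves all genes of a library alike, so the set was also compared with genes of other exon numbers under the same scaling. Of the tested features, 12511 matched a single protein-coding gene in GENCODE release 29, and 200 of these were single-exon genes that are neither histones nor named in the set. With pladienolide B these 200 genes had a median change of 0.79, with 64.5% rising and 10.0% falling. Genes with 2 exons had a median of 0.0001, those with 3 to 5 exons 0.20, with 6 to 10 exons -0.0026, with 11 to 20 exons -0.26 and with 21 or more exons -0.34. The medians with the same total per library were 0.32 for the other single-exon genes and -0.46, -0.27, -0.47, -0.73 and -0.81 for the classes from 2 to 21 or more exons. The median of the named set was above that of every class under both scalings, and the step from 2 exons to 3 to 5 exons went upward. With indisulam the medians were 0.23 for the other single-exon genes and 0.11, 0.11, 0.05, -0.03 and -0.11 for the 5 classes with introns. Here the median of the named set, 0.17, lay below that of the other single-exon genes. The exon classes also differ in length and base composition. The median transcript length of the set was 2816 bases, against 3187 bases for genes with 2 or more exons, the median coding length was 1029 against 1407 bases, and the median GC content was 55.2% against 48.9%. The part of these properties in the differences was not tested.

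**Figure D3:**
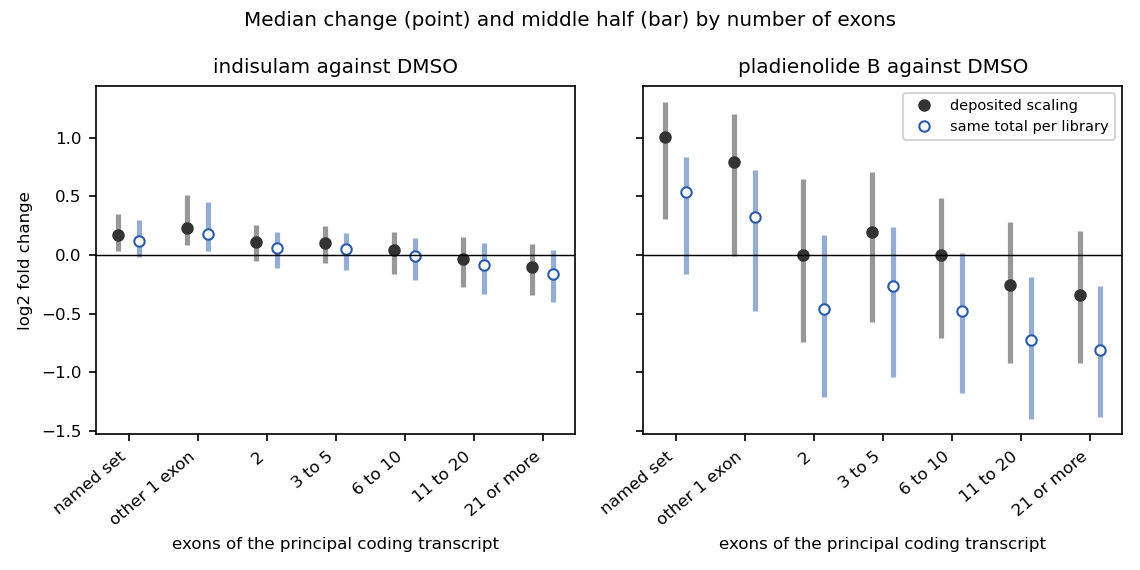
Median log2 fold change against DMSO (points, y axis) and the range holding the central 50% of genes (bars) for the named set, for other single-exon genes outside histones and for genes with more exons (x axis), with indisulam (left) and pladienolide B (right), on the deposited scaling (filled) and with the same total per library (open). The pladienolide B medians of the named set and of other single-exon genes, 1.01 and 0.79 on the deposited scaling, stand above those of all classes with introns.

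The ratio of an intronless gene to a spliced gene within the same library does not depend on the scaling. The spliced genes were relatives in sequence or, for NRARP, RRS1, RNF113A, THBD, B3GALT6 and IER5, genes of the same pathway, complex or response. For 24 such pairs, covering 18 genes of the set, the log2 ratio was above all DMSO libraries in all 3 pladienolide B libraries for 17 pairs, below for 4, and overlapping for 3. With indisulam 7 pairs lay above, 4 below and 13 overlapped. The share of other gene pairs that separate in this way was not computed. Shares for single features do depend on the scaling. On the deposited scale, 35.5% of all features lay wholly above DMSO and 36.3% wholly below with pladienolide B. With indisulam these shares were 27.4% and 21%. With the same total, 2888 of the 16846 features lay wholly above and 9313 wholly below with pladienolide B. With indisulam these counts were 3612 and 4283. Pairs that share a gene are not independent, and with 3 libraries against 3 the exact permutation test (two-sided) cannot go below p = 0.1. The ratio of CHMP1B to CHMP1A, its spliced ESCRT-III relative, was 1.76 ± 0.06 with pladienolide B, 0.97 ± 0.04 with indisulam and 0.37 ± 0.06 with DMSO. The ratio lay above all DMSO libraries with both drugs, by 1.39 with pladienolide B and by 0.61 with indisulam. RRS1 over RPF2, its partner in ribosome assembly in yeast, was 2.94 ± 0.29 with pladienolide B, 0.82 ± 0.03 with indisulam and 0.86 ± 0.06 with DMSO. In this pair the pladienolide B shift was 2.08, and the indisulam and DMSO ratios overlapped. DNAJC30 over DNAJC19, another mitochondrial J-domain protein, shifted by 1.90 with pladienolide B and by 0.32 with indisulam. IER5 over IER3 shifted by 1.08 with pladienolide B and by 0.58 with indisulam, and IER3 itself averaged 17090.1 ± 496 with pladienolide B, 12404 ± 714 with indisulam and 14950.4 ± 1044 with DMSO.

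In some pairs the spliced partner moved more than the intronless gene. NRARP over NOTCH1 shifted by 2.89 with pladienolide B, the largest shift of all pairs, and NOTCH1, the receptor whose signal NRARP limits, averaged 2114 ± 158 with pladienolide B, 9242 ± 177 with indisulam and 9724 ± 586 with DMSO. Over NOTCH2 the shift of NRARP was 0.70. KCTD12 over KCTD2 shifted by 1.76 with pladienolide B, where KCTD2 fell by -1.28 ± 0.08 (limma, adjusted p = 7.4e-09). The pairs that lay below DMSO with pladienolide B were RHOB over RHOA, with a shift of -0.61, RHOB over RHOC, with -0.54, SOX4 over SOX9, with -1.18, and THBD over PROCR, with -0.44. Of these spliced partners, RHOA rose by 0.83 ± 0.05 (limma, adjusted p = 1.13e-08) and SOX9 by 1.20 ± 0.08 (limma, adjusted p = 1.52e-08).

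**Figure D4:**
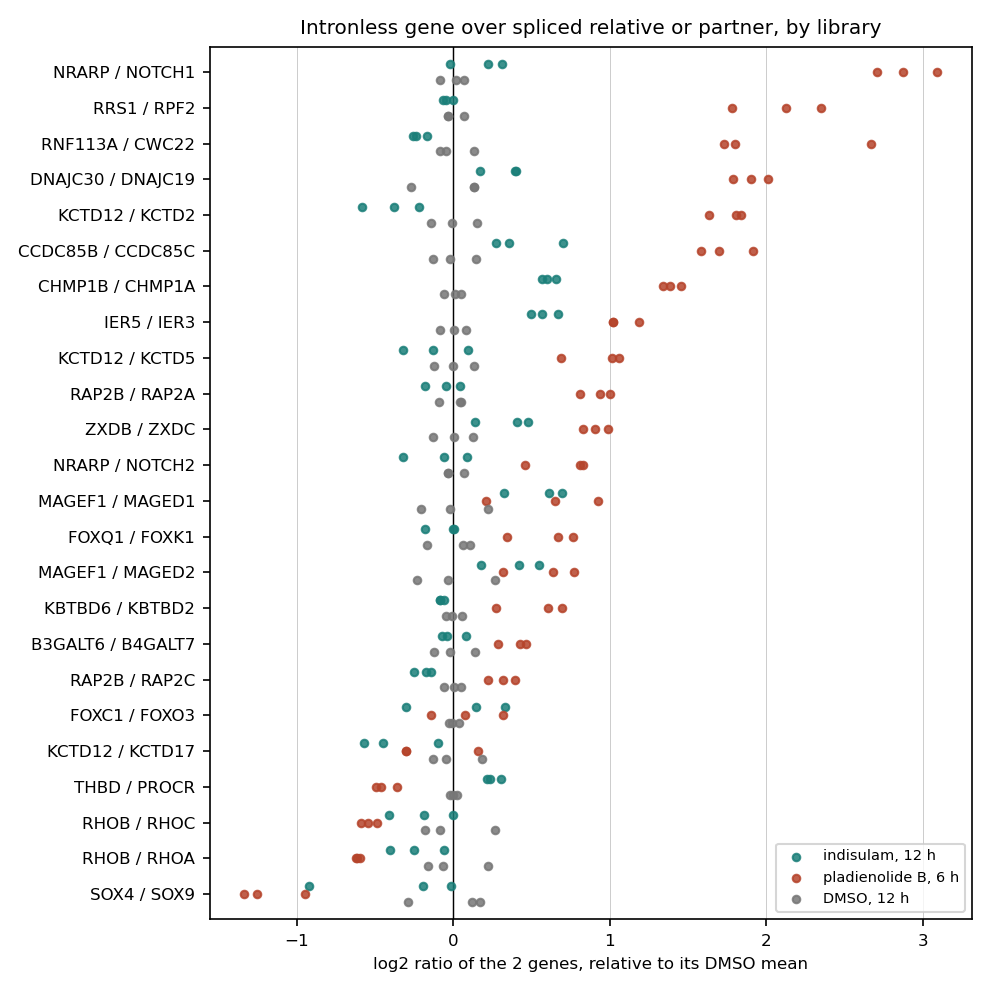
Log2 ratio of an intronless gene to a spliced relative or partner in each library, set against the mean of the DMSO ratios (x axis), for 24 pairs ordered by the pladienolide B shift (y axis). The pladienolide B points of NRARP over NOTCH1 lie furthest right, near 2.89, and those of SOX4 over SOX9 furthest left, near -1.18.

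Lists drawn up for comparison were read from the same fit. Of 27 tested spliced relatives and partners of the set, 13 rose (48.1%) and 8 fell (29.6%) with pladienolide B, where 34.3% of all features rose and 35.5% fell, with a median of 0.19 (log2). With indisulam 6 rose (22.2%) and 2 fell (7.41%), where 14.5% and 12.4% of all features did. At equal library totals 5 of these genes rose and 18 fell with pladienolide B, where 16.2% of all features rose and 53.9% fell, and the median of these genes was -0.28. Of 26 tested genes outside the set that had been listed as intronless, 17 rose (65.4%) and 5 fell (19.2%) with pladienolide B, with a median of 0.74, and 9 rose (34.6%) with indisulam, with a median of 0.18. In the annotation CLDN4 and TIGD2 of this list have 2 exons in their principal transcript, and they are 2 of the 5 that fell, by -0.89 and -0.79. Most of the list has only single-exon coding transcripts there. It thus largely overlaps the other single-exon genes described above and is not a separate comparison. At equal library totals 12 of the 26 rose and 7 fell with pladienolide B, with a median of 0.27. The largest rises of that list with pladienolide B were those of CEBPD, a transcription factor, at 2.35 ± 0.11 (limma, adjusted p = 7.48e-10), and DDX28, a mitochondrial RNA helicase, at 1.89 ± 0.10 (limma, adjusted p = 2.04e-09). CEBPA, CLDN4, JUND, TIGD2 and JUN fell, and JUND, an intronless member of the AP-1 family, gave -0.85 ± 0.10 (limma, adjusted p = 4.02e-06). A rise with pladienolide B was not limited to genes without introns: of 28 tested spliced immediate early genes, 21 rose and 5 fell, with a median of 1.17 on the deposited scale, and 14 rose and 7 fell with the same total, with a median of 0.69. GADD45B and MYC were among those that rose most, at 2.65 ± 0.07 and 2.53 ± 0.05 (limma, adjusted p = 9.18e-12 and 3.76e-12). With indisulam 9 of these 28 spliced genes rose (32.1%) and 3 fell (10.7%), with a median of 0.15, where 14.5% and 12.4% of all features did. At equal library totals 8 of them rose (28.6%) and 3 fell with indisulam, where 10.2% of all features rose and 15.1% fell.

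Set directly against indisulam, pladienolide B gave higher values for 24 of the 32 genes and lower values for 3 (limma, adjusted p under 0.05), where 34.7% of all features were higher and 35.6% lower, and the median difference was 0.68 (log2). The doses and times differed, so the values stand side by side and do not rank the drugs. The largest differences were 2.12 ± 0.09 for MOCS3 (limma, adjusted p = 2.11e-10), 1.70 ± 0.08 for FJX1 (limma, adjusted p = 5.92e-10) and 1.68 ± 0.09 for RRS1 (limma, adjusted p = 1.39e-09). FAM43A, IER5L and INAFM1 were lower with pladienolide B, by -1.30, -1.02 and -0.99. With the same total per library 18 genes were higher and 8 lower, where 17.9% of all features were higher and 50.4% lower, and THBD changed from higher to lower.

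The genes of the set together made up 0.29 ± 0.0134% of all values with pladienolide B, 0.212 ± 0.00456% with indisulam and 0.188 ± 0.00121% with DMSO (SD, n = 3 each), a share that does not depend on the scaling. The lowest pladienolide B library, at 0.278%, stood above the highest indisulam library, at 0.218%, and that group stood wholly above DMSO, whose highest library had 0.19%. This sum gives most weight to the genes with high values and does not describe each gene. With the same total per library, 17 of the 32 genes were called higher with pladienolide B and 6 lower. Per kilobase of the row's span, CCDC85B had the highest level of the set, at 19617 ± 828 with pladienolide B, 11221 ± 1467 with indisulam and 9469 ± 681 with DMSO. In DMSO it was followed by TAF7 with 4674 ± 212 and IER5 with 3628 ± 47.2. RRS1 with 2849 ± 182, FJX1 with 2699 ± 148 and TMEM203 with 2606 ± 126 came next and did not differ beyond their spread. With pladienolide B, RRS1 at 10528 ± 1243, FJX1 at 10296 ± 1149 and TAF7 at 9971 ± 279 followed CCDC85B, again within their spread. LENG9, KBTBD7 and NRARP had the lowest tested levels with DMSO, from 60.3 ± 16.7 to 65.5 ± 1.8, and SOX4 was the next, at 95.3 ± 18.1.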

How the data were processed

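Polyadenylated RNA of MDA-MB-231 was sequenced in 9 libraries, 3 per group, from a stranded mRNA kit per the labels' protocols. STAR 2.7.5a, SAMtools, Picard, FastQC, DESeq2 and the build hg38 are listed in the submitters' processing notes. Which program counted reads, and whether by strand, is not given in the sources used here. Each signal value deposited is, per the file name, a read count per feature normalised by the authors with DESeq2. All values of each library were whole multiples of 1 read (100% within 0.01), so reads were recovered for the count tests.

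Members were taken by symbol, and the members and lists were chosen with earlier results of these data known. Differences were tested with limma 3.58.1 in R 4.3.3, with a trend in the mean, on log2(value + 1), with 1 fit of group means over all 9 libraries, two-sided, adjusted by Benjamini-Hochberg over the 16846 features with a mean of at least 10, at 0.05. The fit was also run on simulated counts with the same dispersion for all features and no shared replicate effect, so that run does not cover such effects. Named in the text are all members, those changed at least 2-fold by library and the others by group, the spliced relative or partner of a described member, and up to 3 genes with the largest called change per direction of a comparison list. Alternatives were the same total per library, TMM (edgeR 4.0.16), other pseudocounts and filters, only the 2 groups compared, a replicate block, each library left out, edgeR and DESeq2 1.42.0. Same-numbered libraries of different groups correlated by 0.003 to 0.128 (deviations from group means), and differently numbered ones by -0.124 to 0.045. The numbers were not used to pair libraries in the main fit. No libraries of a group agreed within sampling noise (lowest chi-square per feature 2.42). Exon numbers are from GENCODE release 29. One spliced gene paired with a member is not reported here.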

Additional observations from a re-analysis of the deposited data

How the results depend on the processing

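Under every alternative run, 17 of the 25 rises and all 3 falls with pladienolide B against DMSO held, as did 6 of the 11 rises with indisulam (IER5, TAF7, PURB, ZXDB, CHMP1B and MAGEF1). Where a value below moved, the cause was not tested. With each library set to the same total, indisulam had 7 members higher and 1 lower with a median difference of 0.12 (log2), pladienolide B had 6 members lower with a median of 0.54, and pladienolide B against indisulam had 8 members lower with a median of 0.26. Over all features the same scaling gave 2733 higher and 9086 lower with pladienolide B against DMSO, and 3013 higher against indisulam. TMM scaling gave 7 members higher with indisulam, and a fit of only the 2 groups compared gave 1 lower. edgeR called 12 and DESeq2 13 members higher with indisulam.

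Leaving out single libraries gave 6 to 13 members higher with indisulam, 6 of them without DMSO replicate 3, with a median of 0.14 to 0.22 (log2). It gave 1565 to 2982 features higher with indisulam, 1565 without indisulam replicate 3 and 1620 without DMSO replicate 2. Adjusted p (limma) reached 0.0633 for DNAJC30, 0.166 for KBTBD7, 0.105 for TMEM203, 0.199 for CCDC85B and 0.176 for FAM43A with indisulam, 0.223 for FOXC1 and 0.0878 for PURA with pladienolide B against DMSO, and 0.0891 for RHOB and 0.0873 for THBD with pladienolide B against indisulam. The libraries whose loss ended a call were indisulam replicate 1 and DMSO replicate 3 for DNAJC30, every indisulam replicate with DMSO replicates 2 and 3 for KBTBD7 and FAM43A, every indisulam replicate with DMSO replicates 1 and 3 for TMEM203, and replicate 1 of each drug with DMSO replicates 2 and 3 for CCDC85B. With pladienolide B against DMSO they were replicates 2 and 3 of each drug with every DMSO replicate for FOXC1, and pladienolide B replicates 2 and 3 with DMSO replicates 1 and 2 for PURA. Against indisulam they were pladienolide B replicate 2 and indisulam replicate 3 for RHOB, and indisulam replicate 2 for THBD.

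The log2 differences of some members changed sign. At equal library totals, indisulam against DMSO gave -0.0424 for KCTD12, -0.0113 for SOX12 and -0.0352 for RNF113A, and TMM gave -0.0322, -0.0011 and -0.025 for the same genes. For SOX4 edgeR gave 0.0408 and DESeq2 0.0409. Leaving out single libraries gave -0.0837 to 0.0807 for KCTD12, -0.2172 to 0.3031 for SOX4, -0.0324 to 0.0959 for SOX12, -0.0938 to 0.0201 for MOCS3, -0.0215 to 0.0632 for RNF113A and -0.06 to 0.3419 for LENG9. For pladienolide B against DMSO, the same total gave -0.0723 for IER2, -0.2556 for RHOB, -0.0539 for RAP2B, -0.1331 for THBD, -0.4502 for SOX4, -0.3742 for SOX12, -0.1308 for FOXC1 and -0.2783 for PURA. TMM gave -0.0835 for SOX4 and -0.0069 for SOX12, and leaving out single libraries -0.1446 to 0.1609 and -0.0285 to 0.209. For pladienolide B against indisulam, the same total gave -0.0732 for RHOB, -0.2165 for THBD, -0.3916 for SOX4, -0.3629 for SOX12 and -0.2818 for PURA. TMM gave -0.0351 for SOX4 and -0.0058 for SOX12, and for SOX4 edgeR gave -0.0252 and DESeq2 -0.0237. Leaving out single libraries gave -0.2817 to 0.2386 for SOX4, -0.0713 to 0.1662 for SOX12 and -0.1812 to 0.1653 for FOXC1.

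All correlations between same-numbered libraries of different groups were positive but low, at 0.003 to 0.128 (deviations from group means). Those between differently numbered libraries were -0.124 to 0.045. Whether same-numbered libraries share an effect was not tested, and the main fit did not pair them. With a replicate block, 15 members were higher with indisulam against DMSO, 26 higher and 4 lower with pladienolide B against DMSO, and 25 higher and 4 lower with pladienolide B against indisulam. At this depth FOXD1, at or near the limit that a count of 0 allows, could not be tested. The widest SEs of a pladienolide B change were 0.24 for LENG9 and 0.23 for SOX4 (log2), and their cause was not tested. For SOX4, replicate 3 was the lowest of each group, at 383 with pladienolide B, 298 with indisulam and 364 with DMSO.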

Other observations

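Some genes of the set lie close together, within 300000 bases of each other on the deposited coordinates, and neighbours did not all move alike. KBTBD6 and KBTBD7, 57.03 kb apart on chromosome 13, changed by 1.32 ± 0.09 and 1.31 ± 0.14 with pladienolide B (log2, SE). ZCCHC3 and SOX12 are 25.23 kb apart on chromosome 20, and ZCCHC3 changed by 0.98 ± 0.08 while SOX12 gave 0.10 ± 0.11. TMEM203 and NRARP are 93.98 kb apart on chromosome 9, with changes of 1.04 ± 0.07 and 0.69 ± 0.16. FOXQ1 and FOXC1 are 295.16 kb apart on chromosome 6, with changes of -0.19 ± 0.17 and 0.34 ± 0.14. Differences between the genes of a pair were not tested, and these pairs were chosen after their values were seen.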
